A study of Mus musculus with 8 samples.

Results

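The axon guidance ligands and receptors expressed in the mouse cortex were compared between mice on a normal diet and mice on a high fat diet. They were found by name among the protein-coding genes. The symbol had to begin with Sema, Plxn, Epha, Ephb, Efna, Efnb, Slit, Robo, Ntn or Unc5, with Slitrk genes left out, or to be Nrp1, Nrp2 or Dcc. This gave 68 genes among the 13996 genes with deposited values, of which 12531 were protein-coding. The prefix Unc5 also took in Unc50, a Golgi membrane protein that shares only the start of its name with the netrin receptors, so 67 of the 68 belong to the guidance families. The rule itself uses names only, but the families were taken up with earlier results of these data known.

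Cortexes of 4 mice on a normal diet and of 4 mice on the high fat diet were sequenced, and each mouse gave 1 library. All were male C57BL/6 mice that entered the study at 8 weeks of age, ate their diet for 8 weeks and were 16 weeks old at sampling. The high fat diet held 60% fat by weight. No genotype beyond the strain was given for either group. All mice were killed under ether anesthesia, and the whole dissected cortex was homogenized. Every value is therefore a mixture of neurons, glia and vessels.

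In guidance, a growing axon reads ligands in its surroundings through receptors on its growth cone. Semaphorins act mainly through plexins, and most of the secreted class 3 semaphorins also need neuropilins for binding. Ephrins are bound to the cell membrane and engage Eph receptor tyrosine kinases on the neighbouring cell, with signals in both directions. Slits repel axons through Robo receptors. Netrins attract axons through Dcc and repel them through Unc5 receptors. In the adult cortex the same families are known for roles in synapses, dendritic spines, myelin and vessels.

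Expression was measured as FPKM, a count of fragments scaled to the length of the transcript and to the number of mapped reads of the library. The diets were compared on log2(FPKM + 0.1) with limma, and a gene passed the test at an adjusted p (Benjamini-Hochberg over all genes tested) below 0.05. A log2 fold change above 0 means a higher level on the high fat diet. All 68 genes entered the test, and 27 of them passed (39.7%), beside 33.1% of all 13982 genes tested. Of the 27, 18 were higher on the high fat diet (26.5%, beside 17.7% of all genes) and 9 were lower (13.2%, beside 15.3% of all genes). The share of lower genes was thus close to that of the whole cortex transcriptome. Without Unc50 the lower genes numbered 8. The count of lower genes changed with single mice, with 3 without high fat diet fed mouse 2 and 4 without normal mouse 2. Higher genes numbered 16 to 19 in all 8 fits that left out 1 mouse. Calls were also fewer over all genes. Lower genes were 1499 of 13941 without high fat diet fed mouse 2 and 1473 of 13962 without normal mouse 2, against 2146 of 13982. Higher genes were 1796 and 1819 there, against 2480. A change over 50% in addition to the adjusted p was reached by 7 of the 68 genes (10.3%, beside 7.13% of all genes): Ntn5, Epha10, Unc5a, Slit3 and Plxnd1 were higher, and Sema5a and Unc5b were lower. The median log2 fold change of the 68 genes was 0.04 and that of all genes tested was 0.00311, while the median size of the change was 0.25 and 0.17. All 68 genes are protein-coding, and over the 12519 protein-coding genes tested the corresponding shares were 33.2% either way, 16.5% higher and 16.8% lower, and with a change over 50% they were 5.7%, 2.65% and 3.04%.

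**Figure D1:**
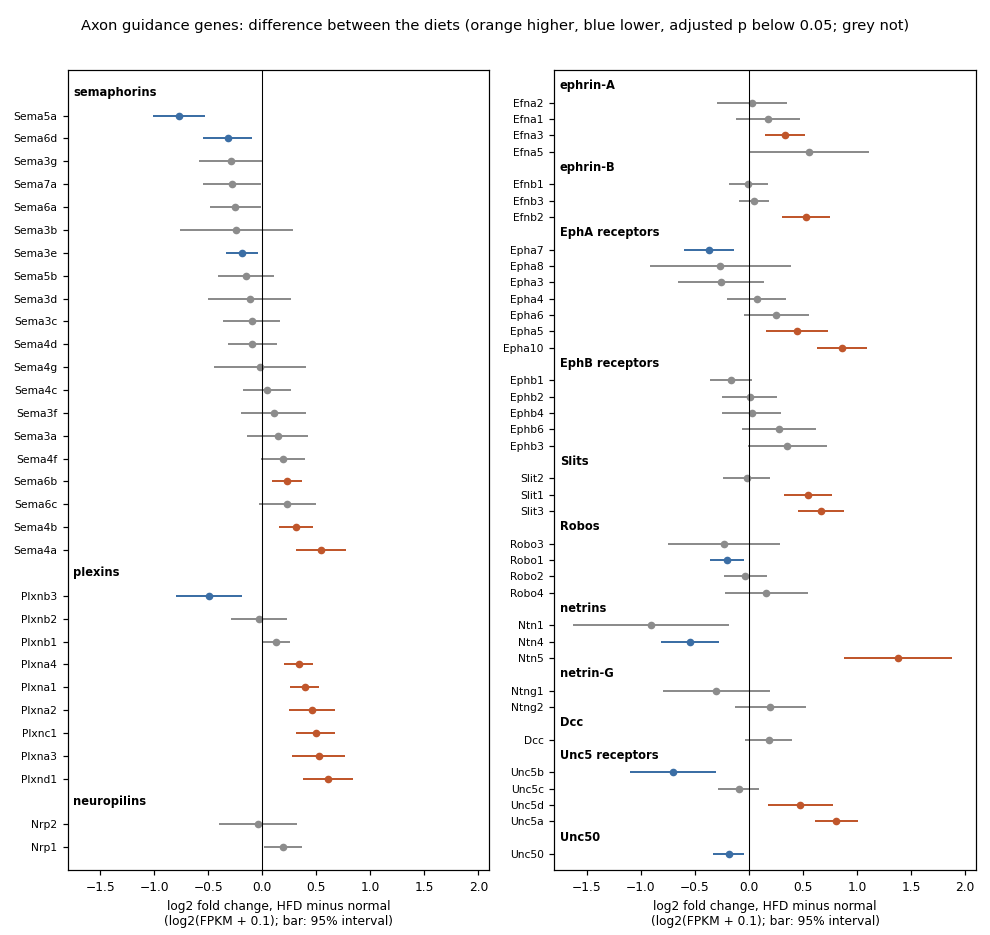
Log2 fold change of each of the 68 genes between the diets (horizontal axis, high fat diet, HFD, minus normal, on log2(FPKM + 0.1)), with its 95% interval as a bar, grouped by family. The 18 genes higher on the high fat diet are orange, the 9 lower ones blue and the 41 others grey; plexins A, C and D stand to the right of 0 and the EphB receptors are all grey.

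The brain regions in the dissected tissue were checked first, because the level of several marker lists differed between the mice. Markers of cortical excitatory neurons were present in all mice, led by Slc17a7, the vesicular glutamate transporter. Their summed level was 896.1, 646.2, 604.8 and 893.9 FPKM in normal mice 1 to 4 and 915.0, 1010.7, 1208.9 and 876.7 FPKM in high fat diet fed mice 1 to 4, and 5 of 7 genes of the list rose. Markers of striatal projection neurons, led by Penk, fell in 9 of 9 tested genes, with sums of 221.2 to 397.2 FPKM on the normal diet and 66.9 to 78.7 FPKM on the high fat diet. The cerebellar granule cell list summed to 31.4, 189.7, 251.9 and 71.5 FPKM in the normal mice and to 31.3 to 34.8 FPKM on the high fat diet. Of its tested genes, 3 of 6 were lower. Etv1, which led the list, averaged 17.3 FPKM on the normal and 20.7 FPKM on the high fat diet and did not pass. Gabra6 was at 1.7, 46.5, 61.7 and 12.2 FPKM in the normal mice. On the high fat diet it was at most 0.2 FPKM, and at 0 in 1 mouse. Thalamic markers, led by Calb2, had the same 2 normal mice highest, with sums of 58.3, 180.0, 179.7 and 74.5 FPKM against 42.5 to 48.6 FPKM, and 2 of 6 genes were lower. Normal mice 2 and 3 therefore held more cerebellar and thalamic marker RNA than the other 6 mice. Oligodendrocyte markers, led by Mbp, fell in 8 of 8 genes, with sums of 2112.2 to 3484.6 FPKM against 1461.8 to 2029.7 FPKM. Of the endothelial markers, led by Cldn5, 2 of 6 fell, with sums of 60.4 to 67.6 against 47.8 to 54.7 FPKM. The astrocyte sums overlapped, at 1167.7 to 1308.1 and 1161.5 to 1231.5 FPKM, with 1 of 7 genes higher and 2 lower. Different amounts of neighbouring regions in the dissected tissue, fewer cells of a type and less RNA per cell cannot be told apart here. The part of these lists in the results below was not tested.

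**Figure D2:**
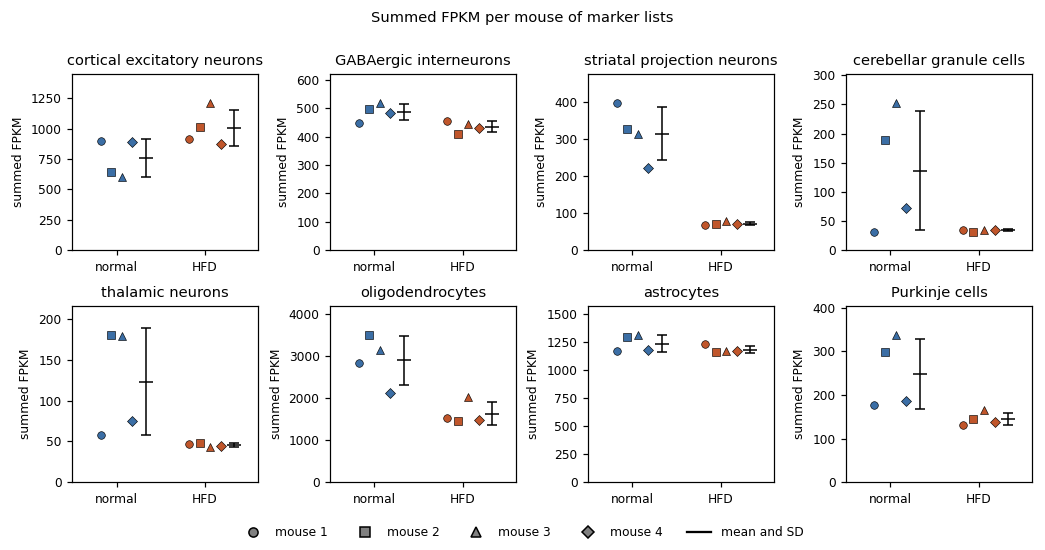
Summed FPKM of 8 marker lists in each mouse (vertical axes start at 0; HFD is the high fat diet, symbols number the mice within a diet, the bar gives mean and SD of 4 mice). Striatal, oligodendrocyte and Purkinje sums are lower in all 4 high fat diet fed mice, and the cerebellar granule cell and thalamic sums are highest in normal mice 2 and 3.

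The order of the normal mice is given beside the changes for that reason. Of the 18 genes that rose, 14 (77.8%) had both normal mice 2 and 3 below normal mice 1 and 4, beside 51.7% of all genes that rose in the transcriptome and 27.3% of all genes tested. None of the 18 had both above, beside 7.86% of all genes that rose. Among the 9 genes that fell, 4 had normal mice 2 and 3 above the other normal mice, namely Plxnb3, Sema6d, Unc50 and Unc5b (44.4%, beside 46.4% of all genes that fell), and 2 had them below, namely Epha7 and Sema3e (22.2%, beside 10.3%). When normal mice 2 and 3 were left out, an alternative chosen after the data were seen, 15 of the 68 genes were higher and 4 lower, beside 19.7% of all genes called in either direction. The calls of Epha5, Plxnb3, Robo1, Sema3e, Sema6b, Sema6d, Unc50, Unc5b and Unc5d were then lost in this fit with fewer mice. The log2 fold change of Sema3e was -0.24 there against -0.19 with all mice, and that of Robo1 was -0.15 against -0.20. In the same fit, Sema3c passed with a log2 fold change of -0.31 (limma adjusted p = 0.0253). The striatal difference remained in this fit. Striatal marker sums were 397.2 and 221.2 FPKM in normal mice 1 and 4, against 66.9 to 78.7 FPKM on the high fat diet. Part of the cerebellar and thalamic difference remained as well. Granule cell sums were 31.4 and 71.5 FPKM in normal mice 1 and 4, against 31.3 to 34.8 FPKM. Thalamic sums were 58.3 and 74.5 FPKM, against 42.5 to 48.6 FPKM.

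Levels spanned a wide range. Epha4, an EphA receptor of excitatory neurons and astrocytes, had the highest mean FPKM over all mice, 61.5. It was followed by Sema7a, a membrane-anchored semaphorin, with 42.9 FPKM and by Ephb6, an Eph receptor without kinase activity, with 42.0 FPKM. Epha4, Sema7a and Ephb6 did not pass the test. At the other end, Sema3b averaged 1.15 FPKM. A mean of at least 10 FPKM was reached by 27 genes and 4 lay under 2 FPKM, where the rounding of the values to 0.1 limits the precision.

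For 4 of the 7 genes past both limits, the promoter is shown, namely Ntn5, Unc5a and Slit3, which rose, and Sema5a, which had the largest fall of the 7. The promoters of the other 3 genes, Epha10, Plxnd1 and Unc5b, are not shown. By log2 fold change, Epha10 (0.86) rose more than Unc5a (0.81) and Slit3 (0.66). The RefSeq start need not be the first base of the annotated gene. Each sequence runs 5′ to 3′ on the gene's strand from 250 bases before to 50 bases after the RefSeq start on GRCm38.p6, and capitals mark GC boxes (GGGCGG on either strand), the site that Sp1-type factors are known to bind. The windows are chr7:45683772-45684071 for Ntn5, chr13:54949161-54949460 for Unc5a, chr11:35121206-35121505 for Slit3 and chr15:32244563-32244862 for Sema5a, all on the plus strand.
Ntn5: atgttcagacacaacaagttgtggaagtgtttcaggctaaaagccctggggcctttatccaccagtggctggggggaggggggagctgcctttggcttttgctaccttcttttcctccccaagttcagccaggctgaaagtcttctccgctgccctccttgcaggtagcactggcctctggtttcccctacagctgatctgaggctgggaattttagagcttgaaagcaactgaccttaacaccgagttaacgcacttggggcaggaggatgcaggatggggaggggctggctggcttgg
Unc5a: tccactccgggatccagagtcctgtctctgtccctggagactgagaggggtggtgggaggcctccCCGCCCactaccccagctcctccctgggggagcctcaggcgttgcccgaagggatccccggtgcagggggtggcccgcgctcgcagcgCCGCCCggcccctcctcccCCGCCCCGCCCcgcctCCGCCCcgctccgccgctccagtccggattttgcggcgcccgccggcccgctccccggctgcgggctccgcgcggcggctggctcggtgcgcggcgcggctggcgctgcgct
Slit3: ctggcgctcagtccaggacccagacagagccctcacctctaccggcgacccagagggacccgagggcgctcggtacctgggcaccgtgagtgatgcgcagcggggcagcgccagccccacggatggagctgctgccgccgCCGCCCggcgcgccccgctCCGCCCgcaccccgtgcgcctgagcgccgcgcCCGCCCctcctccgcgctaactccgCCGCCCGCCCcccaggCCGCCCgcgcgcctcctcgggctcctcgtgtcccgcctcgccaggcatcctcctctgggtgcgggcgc
Sema5a: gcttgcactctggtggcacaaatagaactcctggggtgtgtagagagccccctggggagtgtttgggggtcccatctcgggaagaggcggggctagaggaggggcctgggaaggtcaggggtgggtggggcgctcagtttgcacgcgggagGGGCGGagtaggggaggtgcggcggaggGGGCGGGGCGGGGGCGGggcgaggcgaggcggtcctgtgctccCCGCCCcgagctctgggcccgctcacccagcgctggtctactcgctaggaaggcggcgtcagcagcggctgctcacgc

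The Ntn5 window held 0 GC boxes and 3 CG dinucleotides, the others 5 (Unc5a), 6 (Slit3) and 5 (Sema5a) GC boxes, counted with overlaps, and 37, 41 and 23 CG dinucleotides. The first listed windows of Epha10, Plxnd1 and Unc5b, not shown, held 2, 2 and 3 GC boxes and 21, 23 and 36 CG dinucleotides. RefSeq listed a promoter for 58 of the 68 genes. A GC box was present in 42 of these 58 (72.4%), and in 6277 of the 9478 promoters of all tested genes that matched (66.2%). It occurred in 13 of 14 promoters of genes that rose, in 7 of 9 of genes that fell and in 22 of 35 of the rest. TATAAA on either strand was found in 2 of 58 promoters (3.45%, beside 6.55% of all), CACGTG in 4 (6.9%, beside 10.3%) and TGACGTCA in 0 (beside 3.45%). These counts describe letters in the windows only.

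The semaphorins were the largest ligand family, with 20 genes, of which 3 rose, 3 fell and 14 did not pass the test. Their summed level overlapped between the diets, at 175.6 to 179.5 FPKM and 158.6 to 187.9 FPKM. The fall of Sema5a was the largest in the family. Sema5a, a transmembrane semaphorin with thrombospondin repeats, lies at chr15:32244810-32696341 on the plus strand. It was at 6.9, 6.7, 6.4 and 6.7 FPKM in the normal mice and at 3.7, 3.7, 4.8 and 3.4 FPKM in the high fat diet fed mice. The groups did not overlap. The mean fell from 6.67 ± 0.206 to 3.9 ± 0.616 FPKM (SD, n = 4 each), a log2 fold change of -0.77 (SE 0.10, limma adjusted p = 0.00112). The 4 normal values spanned only 6.4 to 6.9 FPKM. The other class 5 semaphorin, Sema5b, had a log2 fold change of -0.15 and did not pass.

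The class 4 semaphorins are transmembrane ligands that mostly bind B-type plexins. Sema4a rose, at 7.5, 7.0, 6.6 and 8.4 FPKM in the normal mice and 10.2, 10.5, 12.7 and 9.8 FPKM in the other diet group (log2 fold change 0.54, SE 0.10, limma adjusted p = 0.00377). Sema4b rose as well, from 4.3, 5.0, 4.7 and 4.7 FPKM to 6.0, 5.7, 5.7 and 5.9 FPKM (0.31, SE 0.07, limma adjusted p = 0.00753). In both genes every high fat diet fed mouse was above every normal mouse. The other 4 genes of the class did not pass. Of class 6, which binds A-type plexins, Sema6b rose slightly, from 27.5, 25.9, 25.1 and 28.9 FPKM to 32.4, 31.6, 32.4 and 29.1 FPKM (0.22, SE 0.06, limma adjusted p = 0.0166). The gap between the diets was small here, 28.9 to 29.1 FPKM, and without normal mice 2 and 3 the adjusted p was 0.111. Sema6d moved the other way, with a log2 fold change of -0.32 (SE 0.10, limma adjusted p = 0.0319) and overlapping groups, and passed in 3 of the 8 fits that left out 1 mouse. Without normal mice 2 and 3, which had its highest levels (19.2 and 19.8 FPKM), its log2 fold change was -0.16 with an adjusted p of 0.213.

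Among the 7 secreted class 3 semaphorins, only Sema3e passed, with a small fall (-0.19, SE 0.06, limma adjusted p = 0.0401) and no overlap, at 7.2 to 8.1 FPKM on the normal diet and 6.4 to 7.0 FPKM on the high fat diet. It binds Plxnd1 without a neuropilin. This call held in 1 of 8 fits without 1 mouse. The class sum was 30.1 to 33.2 FPKM and 29.6 to 31.8 FPKM, respectively. Sema7a, whose level was the highest of the family, was at 52.2, 47.1, 43.9 and 44.3 FPKM on the normal diet and 36.4, 36.7, 49.7 and 33.1 FPKM on the high fat diet. High fat diet fed mouse 3 alone lay within the normal values, and the gene did not pass (-0.28, 95% interval -0.54 to -0.02, limma adjusted p = 0.0892). That mouse also had the highest sums of its diet for oligodendrocyte (2029.7 FPKM), cortical excitatory neuron (1208.9 FPKM) and upper layer markers (212.5 FPKM).

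Of the plexins, the receptors of the semaphorins, most rose. Among 9 genes, 6 rose, 1 fell and 2 did not pass. The 6 that rose were all 4 A-type plexins, Plxnc1 and Plxnd1, and the levels of these 6 did not overlap between the diets. Summed over all 9, plexin RNA was 97.9 to 104.2 FPKM in the normal mice and 125.7 to 129.9 FPKM in the high fat diet fed mice. The 6 that rose summed to 68.4 to 79.6 and 98.3 to 104.4 FPKM. That gap follows from their selection, because each of the 6 already lacked overlap. The B-type plexins summed to 24.6 to 30.8 and 25.3 to 27.4 FPKM, which overlap. Whether the A, C and D types differed from the B types was not tested as such.

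Plxnd1, the receptor of Sema3e and well known from vessels, changed most among the plexins in the fit of all mice. It lies at chr6:115954811-115995005 on the minus strand. Levels were 15.1, 11.6, 12.4 and 15.4 FPKM in the normal mice and 20.3, 22.4, 18.7 and 21.4 FPKM in the high fat diet fed mice. The mean rose from 13.6 ± 1.91 to 20.7 ± 1.59 FPKM (SD, n = 4 each), a log2 fold change of 0.61 (SE 0.10, limma adjusted p = 0.0025). Without normal mice 2 and 3, which had its lowest levels, the log2 fold change was 0.44. That was below those of Plxna3 (0.62) and Plxnc1 (0.49) in the same fit. Plxnc1, the receptor of Sema7a, rose from 8.6, 9.0, 9.1 and 9.7 FPKM to 12.9, 13.5, 11.2 and 13.9 FPKM (0.49, SE 0.07, limma adjusted p = 0.00181). The receptor was thus higher in all 4 high fat diet fed mice, and its ligand had lower values in 3 of them.

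The A-type plexins pass on class 3 signals together with neuropilins and also bind class 6 semaphorins. Plxna1 was at 14.8, 14.7, 13.9 and 15.0 FPKM in the normal mice and 17.9, 19.1, 20.8 and 19.1 FPKM in the others (0.39, SE 0.06, limma adjusted p = 0.0014). Plxna2, the plexin with the highest level, was at 21.4, 16.7, 16.7 and 21.1 FPKM and at 24.6, 26.5, 27 and 25.9 FPKM (0.46, SE 0.09, limma adjusted p = 0.00505). Its normal mice 2 and 3 were the lowest of all 8. Plxna3 went from 3.1, 4.1, 4.1 and 4.1 FPKM to 5.8, 5.9, 5.0 and 5.5 FPKM (0.52, SE 0.11, limma adjusted p = 0.00588). Plxna4 went from 13.7, 12.3, 13.2 and 14.3 FPKM to 16.8, 17, 17 and 16.7 FPKM (0.34, SE 0.05, limma adjusted p = 0.00235). All of these calls held in each of the 8 fits without 1 mouse and in the fit without normal mice 2 and 3. Plxna1 shares 970 exon bases with the antisense gene Gm26811 and Plxna4 shares 110 with Plxna4os3. The libraries were made with a stranded kit, but the strand setting of the counting is not given. Whether the reads of these pairs were kept apart is therefore unknown. Plxnc1 shares 115 exon bases with Gm48718 and Sema4a shares 73 with Mir7011, both on the same strand.

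Plxnb3, a B-type plexin known from oligodendrocytes, fell from 6.2, 7.0, 6.4 and 4.6 FPKM to 4.3, 3.8, 4.9 and 4.0 FPKM (-0.49, SE 0.13, limma adjusted p = 0.0197), with overlapping groups. Oligodendrocyte markers were lower in 8 of 8 genes in the same libraries. Without normal mice 2 and 3 the call was lost (-0.33, limma adjusted p = 0.145). Plxnb1 and Plxnb2 did not pass, with log2 fold changes of 0.13 and -0.03. The neuropilins did not pass either. Nrp1, the coreceptor of Sema3a, was nevertheless higher in each high fat diet fed mouse, at 14.1, 14.3, 11.5 and 14.1 FPKM against 16.3, 15.0, 15.3 and 15.0 FPKM (0.19, 95% interval 0.03 to 0.36, limma adjusted p = 0.0731). Nrp2 had a log2 fold change of -0.04.

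**Figure D3:**
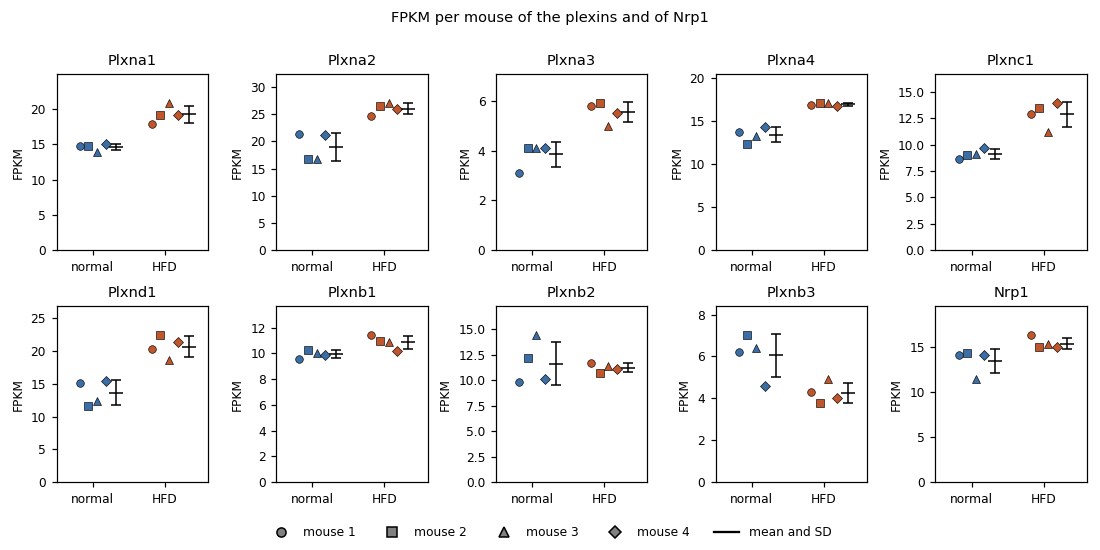
FPKM of the 9 plexins and of Nrp1 in each mouse (vertical axes start at 0; HFD is the high fat diet, symbols number the mice within a diet, the bar gives mean and SD of 4 mice). The 4 A-type plexins, Plxnc1 and Plxnd1 do not overlap between the diets, and the 3 B-type plexins do.

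Of the 7 ephrins, 2 rose and none fell. Efnb2, a transmembrane ephrin known from arteries and synapses, rose from 10.4, 7.7, 8.9 and 9.9 FPKM to 13.4, 13.9, 13.7 and 12.1 FPKM (log2 fold change 0.53, SE 0.09, limma adjusted p = 0.00345). Efna3, a lipid-anchored ephrin and the A-type ephrin with the highest level, rose from 16.5, 15.1, 13.0 and 16.8 FPKM to 19.5, 18.6, 19.3 and 19.7 FPKM (0.33, SE 0.08, limma adjusted p = 0.011). Neither gene overlapped between the diets. Efna3 shares 344 exon bases with Gm15998 on the opposite strand. Efna5 had a larger log2 fold change, 0.56, but varied between 2.8 and 5.8 FPKM on the normal diet and between 4.3 and 7.2 FPKM on the high fat diet, and did not pass (limma adjusted p = 0.103). Efnb3, the ephrin with the highest level (19.5 FPKM), had a log2 fold change of 0.04.

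Their receptors moved in both directions. Of 7 EphA receptors, 2 rose and 1 fell, and of 5 EphB receptors none passed, with log2 fold changes from -0.16 (Ephb1) to 0.35 (Ephb3). Epha10, an Eph receptor that lacks an active kinase, is at chr4:124880899-124917800 on the plus strand. Its levels were 2.5, 2.1, 1.9 and 2.1 FPKM in the normal mice and 3.8, 3.9, 4.1 and 4.1 FPKM in the high fat diet fed mice. The diets were clearly apart, with means of 2.15 ± 0.252 and 3.98 ± 0.15 FPKM (SD, n = 4 each; 0.86, SE 0.10, limma adjusted p = 0.000768). It shares 79 exon bases with 1700125G02Rik on the opposite strand.

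Epha5, a receptor of A-type ephrins, rose by 0.44 (SE 0.12, limma adjusted p = 0.0225) at 15.6 to 22.9 FPKM on the normal diet and 20.9 to 27.2 FPKM on the high fat diet. The groups overlapped, and the call held in 3 of 8 fits without 1 mouse and not without normal mice 2 and 3 (0.27, adjusted p = 0.151). Epha7 fell, from 31.0, 23.1, 23.4 and 29.3 FPKM to 22.0, 19.3, 20.1 and 20.6 FPKM (-0.37, SE 0.10, limma adjusted p = 0.0192), and of the 8 fits without 1 mouse it lost its call in the one without high fat diet fed mouse 2. Normal mice 2 and 3 were here the lower of the normal mice, nearer to the high fat diet fed mice. Epha4 was at 73.7, 55.4, 47.2 and 65.4 FPKM in the normal mice and at 62.0, 63.2, 66.4 and 58.8 FPKM on the high fat diet. Its interval ran from -0.20 to 0.34 around a log2 fold change of 0.07.

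Both Slit1 and Slit3, repellents secreted by neurons and other cells, rose, while Slit2 did not pass. Slit3 lies at chr11:35121224-35708507 on the plus strand. In the normal mice it was at 8.1, 7.1, 6.7 and 8.8 FPKM, and in the high fat diet fed mice at 12.5, 13.1, 11.5 and 11.6 FPKM. All high fat diet fed mice exceeded all normal mice, with means of 7.67 ± 0.954 and 12.2 ± 0.763 FPKM (SD, n = 4 each; 0.66, SE 0.09, limma adjusted p = 0.0012). Slit1, at chr19:41600257-41743665 on the minus strand and the Slit with the highest level, rose from 12, 11.7, 11 and 14.6 FPKM to 19.8, 18.5, 15.8 and 17.8 FPKM (0.54, SE 0.10, limma adjusted p = 0.00342). Slit2 was at 8.2, 6.5, 6.9 and 8.4 FPKM and at 7.6, 7.0, 6.9 and 7.9 FPKM (-0.02, 95% interval -0.23 to 0.19).

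None of the Robo receptors passed as higher. Of 4 genes, 1 fell and 3 did not pass. Robo2, the most abundant, was at 24.5 to 31.0 FPKM on the normal diet and 25.2 to 28.2 FPKM on the high fat diet (-0.03, 95% interval -0.22 to 0.16). Robo1 fell slightly, from 9.82 ± 0.591 to 8.53 ± 0.465 FPKM (SD, n = 4 each; -0.20, SE 0.06, limma adjusted p = 0.0379), with overlapping groups and a call that held in 2 of 8 fits without 1 mouse. Robo3 and Robo4, the latter known from endothelial cells, had log2 fold changes of -0.23 and 0.16. Slits together summed to 24.6 to 31.8 FPKM and 34.2 to 39.9 FPKM, and Robos to 38.9 to 46.6 FPKM and 38.0 to 40.8 FPKM.

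The netrins diverged among themselves. Ntn5, a short secreted netrin, had the largest fold change of all 68 genes. It lies at chr7:45684022-45694556 on the plus strand. The normal mice were at 2.3, 1.3, 1.3 and 1.8 FPKM and the high fat diet fed mice at 3.8, 5.9, 4.9 and 3.4 FPKM. The groups were apart, with means of 1.68 ± 0.479 and 4.5 ± 1.13 FPKM (SD, n = 4 each; 1.38, SE 0.22, limma adjusted p = 0.00216). Ntn5 shares 519 exon bases with Sec1 on the opposite strand, so its level could include reads of Sec1 if strand was not used. Ntn4, a netrin of basement membranes, fell from 3.6, 3.9, 4.9 and 4.2 FPKM to 3.1, 2.9, 2.8 and 2.4 FPKM (-0.55, SE 0.12, limma adjusted p = 0.00721), and the groups did not overlap.

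Ntn1, the best known attractant, was at 2.0, 5.0, 6.2 and 2.8 FPKM in the normal mice and at 2.1, 2.2, 2.0 and 1.4 FPKM on the high fat diet. Its high values were those of normal mice 2 and 3, the mice with the highest cerebellar granule cell and thalamic marker sums. The log2 fold change of -0.90 (SE 0.32, 95% interval -1.62 to -0.19) did not pass (limma adjusted p = 0.0535). Without normal mice 2 and 3 it was -0.30 (limma adjusted p = 0.344). The membrane-anchored netrin-G genes, which bind other partners than Dcc, did not pass, with -0.30 for Ntng1 and 0.20 for Ntng2.

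Among the netrin receptors, Unc5a and Unc5b changed in opposite directions. Unc5a, at chr13:54949411-55006018 on the plus strand, was at 16.2, 15.0, 14.0 and 17.9 FPKM in the normal mice and at 26.1, 27.9, 30.9 and 25.8 FPKM in the high fat diet fed mice. No values overlapped. Unc5a shares 34 exon bases with Hk3 on the opposite strand. The means were 15.8 ± 1.68 and 27.7 ± 2.34 FPKM (SD, n = 4 each; 0.81, SE 0.08, limma adjusted p = 0.000602). Unc5b, a family member also known from vessels, lies at chr10:60762593-60831581 on the minus strand. It fell from 7.8, 11.3, 11.1 and 7.5 FPKM to 5.2, 5.1, 7.6 and 5.1 FPKM (-0.70, SE 0.17, limma adjusted p = 0.0141). High fat diet fed mouse 3 overlapped the normal mice. The mouse pair with the highest levels was again normal mice 2 and 3, and without them the log2 fold change was -0.43 with an adjusted p of 0.102.

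Unc5d rose by 0.47 (SE 0.13, limma adjusted p = 0.0207), from 6.6 to 9.6 FPKM on the normal diet to 9.8 to 13.4 FPKM on the high fat diet, and held in 6 of 8 fits without 1 mouse and not without normal mice 2 and 3 (0.32, adjusted p = 0.0877). Unc5c did not pass (-0.09). Dcc, the attractive netrin receptor, was at 6.4, 5.0, 4.9 and 5.6 FPKM and at 6.5, 6.2, 5.7 and 6.4 FPKM (0.18, SE 0.09, limma adjusted p = 0.157). Unc50, included by its name only, was at 23.9 to 27.6 FPKM and 21 to 24.1 FPKM (-0.19, SE 0.06, limma adjusted p = 0.0387).

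**Figure D4:**
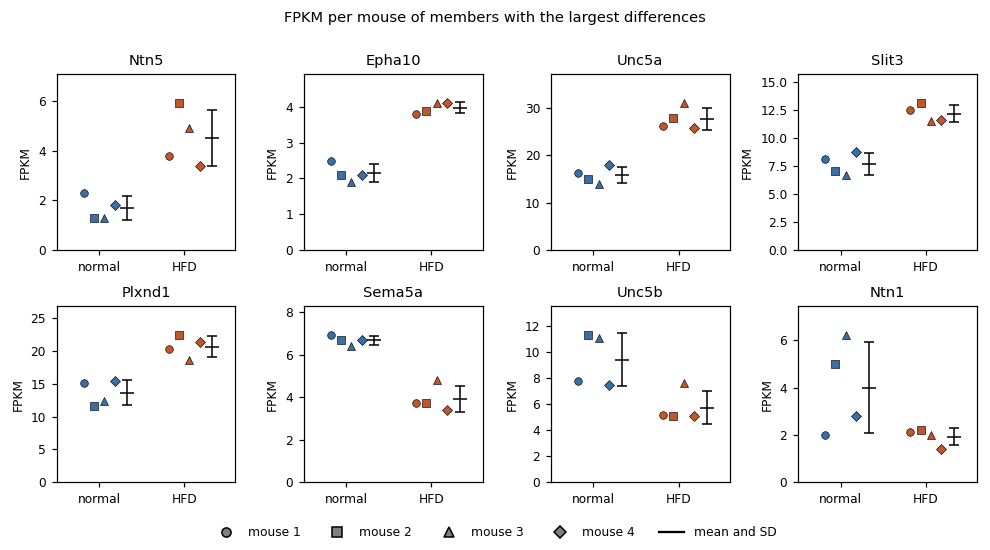
FPKM in each mouse of the 7 genes past the adjusted p and a 50% change, and of Ntn1 (vertical axes start at 0; HFD is the high fat diet, symbols number the mice within a diet, the bar gives mean and SD of 4 mice). Ntn5, Epha10, Unc5a, Slit3, Plxnd1 and Sema5a do not overlap between the diets, Unc5b does through high fat diet fed mouse 3, and Ntn1 is highest in normal mice 2 and 3.

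Counted by role, 8 of 35 ligand genes rose and 4 fell, and 10 of 32 receptor genes rose and 4 fell. Of all genes tested, 17.7% rose and 15.3% fell. The receptor sums did not overlap between the diets, at 378.9 to 438.9 FPKM and 452.6 to 468.6 FPKM. Normal mice 2 and 3 had the lowest receptor sums, 383.7 and 378.9 FPKM. The ligand sums overlapped, at 294.9 to 306.6 and 294.9 to 323.4 FPKM. Over all 68 genes, 22 had groups without overlap (32.4%, beside 31.9% of all genes tested), 18 with the high fat diet above (beside 17.2%) and 4 with it below (beside 14.7%), namely Epha7, Ntn4, Sema3e and Sema5a.

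Signaling genes around these receptors were examined in 5 lists, which held 93 tested genes outside the families above. Of the 93, 34 rose and 13 fell, beside 17.7% and 15.3% of all genes tested, with a median log2 fold change of 0.13. In the list around semaphorins and plexins, 8 of 20 rose and 2 fell. Farp1, a plexin-binding exchange factor, rose by 0.50 (limma adjusted p = 0.00146), Met, a receptor kinase that partners with plexins, by 0.48 and Mical2, an actin-oxidizing enzyme, by 0.41. Itgb1, an integrin subunit that binds Sema7a, had -0.37 and the kinase Fyn -0.19. In the ephrin and Eph list, 3 of 17 rose (Kalrn 0.47, Sipa1l1 0.42 and Tiam1 0.24) and 4 fell, led by the exchange factor Vav3 (-0.90, limma adjusted p = 0.00741), the adaptor Nck1 (-0.48) and the phosphatase Ptpn13 (-0.31).

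Around Slits and Robos, 6 of 12 rose and 3 fell. The GTPase-activating proteins of the srGAP family, which bind Robo, differed. Srgap3 rose from 22.4 ± 2.24 to 32.6 ± 1.57 FPKM (SD, n = 4 each; 0.54, limma adjusted p = 0.00114), whereas Srgap1 fell from 2.23 ± 0.574 to 1.27 ± 0.0957 FPKM (-0.73, limma adjusted p = 0.0128). The other named genes of this list were Arhgap39 (0.38), the syndecan Sdc3 (0.37), Cdc42 (-0.32) and the deubiquitinase Usp33 (-0.25), all past the threshold.

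Around netrins, Dcc and Unc5, 10 of 19 rose and 1 fell. Flrt1 (0.71, limma adjusted p = 0.00111) and Flrt2 (0.54) encode cell surface proteins that bind Unc5 receptors, and Dscaml1 (0.62) is a homolog of a netrin receptor. Pitpna, a lipid transfer protein, was the gene that fell (-0.19). In the list of other cues, 7 of 25 rose and 3 fell. The largest rises were those of Rtn4rl2 (0.78) and Rtn4r (0.67), which encode Nogo receptors, and of Lingo1 (0.70), and the genes that fell were Mag (-0.87), Ryk (-0.35), a Wnt receptor, and Rtn4 (-0.26). A further Nogo receptor gene, Rtn4rl1 (0.12, limma adjusted p = 0.0648), and the ligand gene Omg (-0.10, limma adjusted p = 0.315) did not pass. Mag is also an oligodendrocyte marker of the list above.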

How the data were processed

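RNA was measured in cortexes of 4 normal diet and 4 high fat diet fed mice. The authors trimmed the reads with Trimmomatic after FastQC, aligned them to mm10 with STAR and computed the deposited FPKM values with Cuffnorm on GENCODE M17 (GRCm38.p6), and their analysis excluded genes averaging under 1 or with a 0. The deposited table still held 14 such genes. The libraries were made with a stranded kit, but tool versions and the use of strand in counting could not be taken from these sources. FPKM values are rounded to 0.1 and read depth is unknown, so intervals from counts were not computed. FPKM sums per mouse were 562431 to 639142, and log2 values of mice of 1 diet correlated at 0.981 to 0.992 across genes, which are not independent replicates.

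From these, log2(FPKM + 0.1) was fitted with limma 3.58.1 (R 4.3.3, variance trend, two-sided) without covariates, with Benjamini-Hochberg adjustment over 13982 genes with a mean of at least 1 and no 0, so fold changes of low genes are understated. The script was tested on simulated data. Each mouse gave 1 library, and mouse numbers are names only. Alternatives are given in the closing section.

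The genes, the 5 signaling lists, the 19 marker lists and the tests were chosen with earlier results of these data known. Any of the 68 genes could be named. Values of each mouse were given for genes past both thresholds, for the next 12 by adjusted p and for others singled out after their values were seen, and per signaling list up to 3 genes each way were named. Coordinates and exon overlaps came from GENCODE M21 (GRCm38), which matched all 68 genes, 61 with the same versioned identifier. Promoters came from RefSeq (GRCm38.p6). The second quantification with Salmon and edgeR and the circRNA data were not used here. Tables were made with Python 3.11.15, pandas 2.3.3 and numpy 2.4.6, and figures with matplotlib 3.10.9.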

Additional observations from a re-analysis of the deposited data

Results flagged for a closer look

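In 6 of the 136 groups of 4 mice (68 genes on 2 diets), 1 mouse lay apart from the other 3 by Dixon's test at its 95% critical value, where chance gives about 1 in 20 groups. High fat diet fed mouse 3 was apart in Epha3 (2.3 FPKM), Ephb6 (56.3 FPKM) and Unc5b (7.6 FPKM), and high fat diet fed mouse 4 in Robo4 (1.0 FPKM). On the normal diet, mouse 3 was apart in Nrp1 (11.5 FPKM) and mouse 1 in Plxna3 (3.1 FPKM).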

How the results depend on the processing

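Counts below are genes higher and lower among the 68, then with a change over 50%, then among the 93 signaling genes. They were 18 and 9, 5 and 2, and 34 and 13, with 18 and 4 of the 68 without overlap. The alternatives were an added constant of 0.5 or 1, no filter or a mean of at least 5 FPKM, quantile normalization, median-ratio rescaling, protein-coding genes only, no variance trend, a replicate block and each mouse left out. Quantile normalization and protein-coding genes gave 5 and 3 over 50%, and a mean of at least 5 FPKM (46 genes) gave 15 and 8, then 3 and 2. With 1 mouse left out, the ranges were 16 to 19 and 3 to 9, 4 to 8 and 2 to 4, 25 to 34 and 11 to 14, and without overlap 18 to 22 and 4 to 10. Of all genes tested, 23.6% to 33.1% were called in either direction in these fits. Without normal mouse 4, 8 and 4 exceeded 50%, and without normal mouse 1, 6 and 4 did. Fewer mice make an overlap less likely. For the overlap counts of the alternatives, no share over all genes was computed. Of the 27 genes, 19 passed in all 8 of these fits. Median-ratio rescaling gave 18 and 6 without overlap. The mouse numbers did not pair the samples (same-number correlations -0.109 to -0.0275). A replicate block gave 17 and 6, 5 and 3, and 26 and 10, beside 24.2% of all genes called in either direction. Without normal mice 2 and 3, chosen after seeing the data, the counts were 15 and 4, 4 and 1, 23 and 11, and without overlap 24 and 7. In that fit 19.7% of all genes were called in either direction. Slit3 (0.52) and Plxnd1 (0.44) passed there but were under the 50% limit, and Plxna3 (0.62) was over it. Ntn1 passed with the block (adjusted p = 0.0474), with protein-coding genes (0.0481) and with quantile normalization (0.0441), all in limma, and without normal mouse 1 or normal mouse 4, but not in the other fits of all mice. Without normal mice 2 and 3 its log2 fold change was -0.30 (0.344). Signs turned only in genes that had not passed: under quantile normalization Efna2 (-0.016) and Ephb4 (-0.011), under median-ratio rescaling Ephb2 (-0.0018), and without normal mice 2 and 3 Epha4 (-0.15), Epha8 (0.31), Ntng2 (-0.038), Plxnb2 (0.17), Sema3a (-0.052), Sema3d (0.10), Sema4g (0.30) and Unc5c (0.045). With 1 mouse left out, log2 fold changes ran over 0 in Epha4 (-0.042 to 0.17), Ephb2 (-0.066 to 0.074), Ephb4 (-0.027 to 0.097), Robo2 (-0.090 to 0.023), Slit2 (-0.088 to 0.034), Efna2 (-0.065 to 0.11), Efnb1 (-0.038 to 0.052), Nrp2 (-0.14 to 0.086), Plxnb2 (-0.11 to 0.074), Sema4c (-0.0052 to 0.12) and Sema4g (-0.17 to 0.11). The causes were not tested. Rounding to 0.1 FPKM limits genes near 1 FPKM.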

Other observations

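The remaining marker lists, which the text above did not describe, gave these values. Upper layer markers had 1 of 6 genes higher and 1 lower (181.8 to 199.1 and 166.5 to 212.5 summed FPKM), and deep layer markers had 3 of 8 higher and 2 lower (103.1 to 130.1 and 130.6 to 157.9 FPKM). GABAergic interneuron markers, led by Sst, had 2 of 8 higher and 4 lower (449.0 to 518.0 and 409.4 to 454.9 FPKM). Purkinje markers fell in 3 of 3 tested genes. Oligodendrocyte precursor markers had 2 of 6 higher and 2 lower, microglial markers 0 of 6 either way, pericyte markers 1 of 6 lower, meningeal fibroblast markers 2 of 5 lower, and immature neuron markers 0 of 4 either way.

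Ependymal markers fell in 4 of 4 genes and blood markers in 5 of 5, with hemoglobin Hbb-bs as the gene of highest level. Choroid plexus markers were lower in 3 of 6 genes, with sums, led by transthyretin (Ttr), of 343.6 to 728.8 FPKM in normal mice and of 76.9, 21.2, 27.8 and 942.3 FPKM in high fat diet fed mice 1 to 4.

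The levels of the 68 genes varied more between mice of a diet than those of all genes tested. Their median coefficient of variation of FPKM was 12.6% (normal) and 9.43% (high fat diet), beside 8.45% and 7.08% for all genes.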
